A study of Mus musculus with 6 samples.

Results

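The miR-26 family was examined in small RNA libraries of endothelial progenitor cells (EPCs), which were cultured from mouse bone marrow to yield endothelial-like cells. The family was taken by name as mmu-miR-26a-5p, mmu-miR-26a-1-3p, mmu-miR-26a-2-3p, mmu-miR-26b-5p and mmu-miR-26b-3p, which are 5 of the 1915 mature microRNA (miRNA) names in the count table. All 5 passed the expression filter and were among the 677 names tested. The CAP group held 3 libraries from adult male C57BL/6 mice exposed by inhalation to fine particulate matter concentrated from ambient air, abbreviated CAP. The Air group held 3 libraries from adult male C57BL/6 mice that had breathed filtered air over the same daily schedule. No allele, transgene or other agent is given for either group, and the labels give 12 days of culture for both. The methods of the study state another culture time and name the J substrain of these mice. The mice of a group shared a single cage, so that cage and exposure cannot be told apart.

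A miRNA is cut as a duplex from a hairpin precursor. The guide strand is loaded into the silencing complex and pairs through its seed, bases 2 to 8, with target mRNAs, while the passenger strand is mostly degraded. The miR-26 hairpins lie in introns of the Ctdsp genes, which encode small phosphatases of the RNA polymerase II tail that also act on the retinoblastoma protein, and in human cells miR-26a and its hosts together restrain entry into the cell cycle. miR-26a represses Ezh2, the Polycomb histone methyltransferase, and in endothelial cells it targets Smad1, a transducer of BMP signalling, and limits angiogenesis. miR-26a and miR-26b are among the miRNAs that Myc represses.

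The mature sequences are shown because the balance of the 2 guide strands turns on how alike they are. They are written 5′ to 3′ from RefSeq (GRCm38.p6), with the seed in capitals. All 5 names were matched there, as were 543 of the 677 names tested, so that seeds of the others were not compared.
mmu-miR-26a-5p: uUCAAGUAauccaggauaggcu
mmu-miR-26b-5p: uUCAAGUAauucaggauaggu
mmu-miR-26a-1-3p: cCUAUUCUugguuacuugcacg
mmu-miR-26a-2-3p: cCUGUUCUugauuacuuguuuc
mmu-miR-26b-3p: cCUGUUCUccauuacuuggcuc
Both guides carry the seed UCAAGUA, which pairs with UACUUGA in a target, and no other mature name in the RefSeq table shared it. Counted from the 5′ end and with miR-26a-5p as the first base given, they differed by C11U and C21U over the 21 bases compared, and miR-26a-5p is 1 base longer (22 against 21). Over the first 20 bases only 1 substitution separates them. How many mismatches were allowed in counting is not given in the sources used here, so that some short reads of one guide may have been counted for the other, which was not tested. Among the passengers, miR-26a-2-3p and miR-26b-3p share the seed CUGUUCU, while miR-26a-1-3p differs from miR-26a-2-3p within it by A4G and at 6 positions in all.

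The 3 hairpins are shown to place each arm, with the mature arms in capitals.
mir-26a-1: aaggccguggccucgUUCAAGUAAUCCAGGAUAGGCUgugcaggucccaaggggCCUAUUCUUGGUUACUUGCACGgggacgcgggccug
mir-26a-2: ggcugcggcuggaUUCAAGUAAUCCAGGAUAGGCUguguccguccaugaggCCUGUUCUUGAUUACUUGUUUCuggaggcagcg
mir-26b: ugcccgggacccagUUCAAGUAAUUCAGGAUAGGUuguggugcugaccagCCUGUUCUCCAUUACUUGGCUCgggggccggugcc
On GRCm38, mir-26a-1 lies at chr9:119031796-119031885 on the plus strand, in intron 5 of 1 coding transcript of Ctdspl and intron 4 of the other in the GENCODE annotation. mir-26a-2 lies at chr10:126995530-126995613 on the plus strand, in intron 5 of the longer coding transcript of Ctdsp2, and its last base is also the first base of a shorter coding transcript. mir-26b lies at chr1:74394310-74394394 on the plus strand, in intron 4 of Ctdsp1. mir-26a-1 and mir-26a-2 give the same mature miR-26a-5p. Its 2 rows in the table differed by 10 to 33 counts per library, so that reads of this guide could not be assigned to either hairpin, and only the passengers tell them apart.

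With 1 row per mature name, the libraries held 13831209 to 18107578 counts. Levels are given as CPM, which are counts made comparable between libraries by TMM scaling to the bulk of miRNAs. Changes are given as log2FC, the log2 of the CAP level over the Air level, with its standard error (SE). Of 677 names tested with edgeR's quasi-likelihood test, 0 passed a Benjamini–Hochberg adjusted p of 0.05 (0%), 78 were higher in CAP at an unadjusted p under 0.05 (11.5%) and 64 were lower (9.45%). With upper-quartile scaling, which moved the median log2FC by 0.15, this split was 130 higher and 25 lower. DESeq2 passed 29 of the 445 names to which it gave an adjusted p (6.52%), none of them a miR-26 strand, and limma-voom passed 0. The endothelial markers miR-126a-3p and miR-126a-5p were both detected, with summed levels of 947 to 3675 CPM in CAP and 1953 to 5120.0 CPM in Air. Those of the 3 haematopoietic markers, miR-142a-3p, miR-142a-5p and miR-223-3p, were 59914 to 75148 CPM in CAP and 57169 to 70785 CPM in Air, above the endothelial sum in all 6 libraries. The 4 stromal markers were miR-143-3p, miR-145a-5p, miR-199a-3p and miR-214-3p. Their sums were 35667 to 51140.0 CPM in CAP and 47692 to 59320.1 CPM in Air, also above the endothelial sum in each library. Levels of different miRNAs carry ligation bias, so that these sums do not rank cell types. The 4 stromal and both endothelial markers each had a log2FC below 0, and the 3 haematopoietic markers one above 0. Of all 677 names, 335 were below 0. Liver miR-122-5p reached 24731 CPM in CAP replicate 1 alone, with 75.0 to 277 CPM elsewhere. The part of these markers in the levels of miR-26 was not tested.

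miR-26a-5p was the strand of the family with the smallest p, and it was lower in CAP. It was at 8420.0, 6992 and 8052 CPM in CAP replicates 1, 2 and 3, and at 9702, 9980.4 and 12388 CPM in Air replicates 1, 2 and 3. Every CAP library lay below every Air library, with CAP replicate 2 the lowest and Air replicate 3 the highest of the 6. The means were 7821 ± 741 CPM in CAP and 10690.1 ± 1477 CPM in Air (SD, n = 3 each), or 0.732 times the Air level. The log2FC was −0.45 (SE 0.12), with an edgeR p of 0.00756 and an adjusted p of 0.146. It ranked 34 by p among the 677 names and did not pass. Without CAP replicate 1, the library high in miR-122-5p, the log2FC was −0.56 with an edgeR adjusted p of 0.113, within a range of 0.0498 to 0.340 over all settings run. CPM without overlap and lower in CAP were found for 14.3% of all names, and for 19.6% of the 184 names that averaged at least 100 CPM, so that this separation was not rare in these libraries. In cultures of mixed cells, fewer cells of a type and less of the miRNA per cell cannot be told apart.

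miR-26b-5p, the more abundant guide, was slightly higher in CAP. It was at 15889, 16121 and 16494 CPM in the CAP libraries and at 14333, 15254 and 15357 CPM in the Air libraries. The groups did not overlap, but the lowest CAP library and the highest Air library were only 532 CPM apart. The means were 16168 ± 305 CPM in CAP and 14981 ± 564 CPM in Air (SD, n = 3 each), and the log2FC was 0.11 (SE 0.07, edgeR adjusted p = 0.380). CPM without overlap and higher in CAP were found for 14.6% of all names and for 15.8% of those averaging at least 100 CPM. Its highest library was 1.15 times its lowest, and it ranked 12 of 184 for evenness across the 6 libraries, counted from the smallest spread of log2 CPM. For miR-26a-5p the highest library was 1.77 times the lowest, and its rank was 141. Upper-quartile scaling gave a log2FC of −0.30 for miR-26a-5p and 0.26 for miR-26b-5p, neither passing edgeR's adjusted test, and neither turned sign under any setting run.

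The guides stood among the abundant miRNAs in both groups. By level, miR-26b-5p ranked between 17 and 20 in the CAP libraries and 18 or 19 in the Air libraries. miR-26a-5p ranked between 29 and 31 in the CAP libraries and between 21 and 26 in the Air libraries, so that it stood further down the order in every CAP library. The summed level of both guides was 24309, 23113 and 24545 CPM in CAP and 24035, 25234 and 27745 CPM in Air. These sums overlapped between the groups, at 23989 ± 768 CPM and 25671 ± 1893 CPM (SD, n = 3 each). All 5 strands together took 2.31 to 2.45% of the counts of a CAP library and 2.53 to 2.71% of those of an Air library. These shares of unscaled counts did not overlap between the groups, while the scaled sums did. How often this is so for other families was not counted. Levels of different miRNAs carry ligation bias, so that the order of miR-26b-5p over miR-26a-5p is one of counts.

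**Figure D1:**
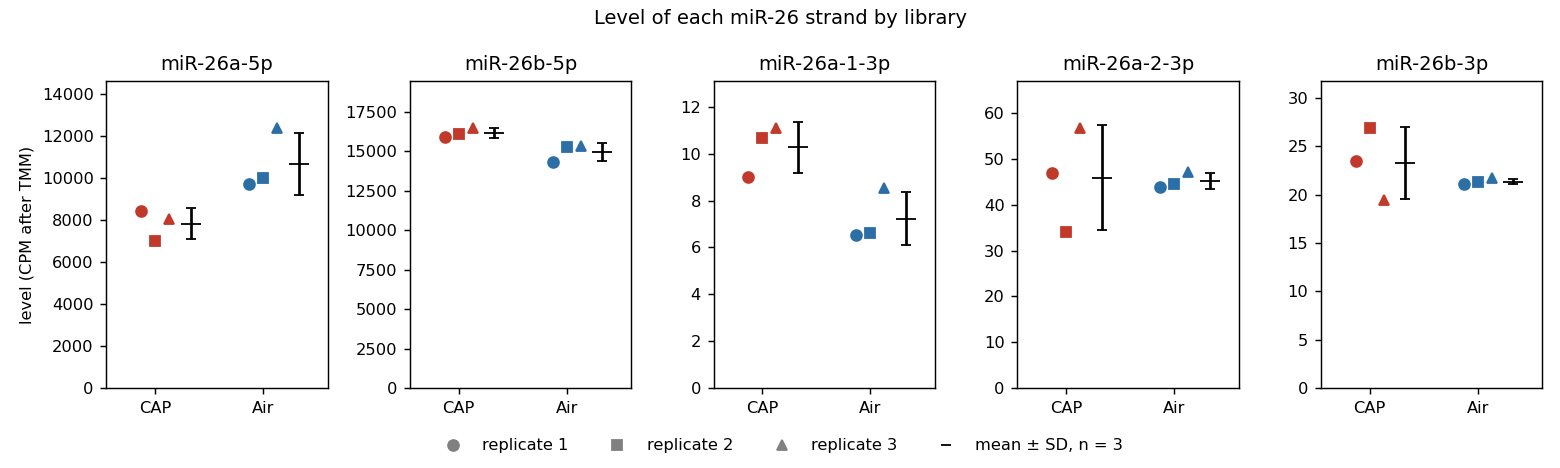
Level in CPM after TMM scaling (vertical axes start at 0) of each miR-26 strand in the 3 CAP and 3 Air libraries, with points for replicates and a bar for the mean ± SD of the group. miR-26a-5p lies between 6992 and 8420.0 CPM in CAP, below all Air libraries, while miR-26b-5p and miR-26a-1-3p lie above them and the other strands overlap.

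The passenger strands were scarce, and the CAP mean of each lay above its Air mean, with no test passed. miR-26a-1-3p, which comes only from the Ctdspl hairpin, was at 9.02, 10.7 and 11.1 CPM in CAP and at 6.53, 6.60 and 8.53 CPM in Air. The CAP libraries all lay above the Air libraries, as was so for 14.6% of all names, but the gap was small. The nearest values were 9.02 CPM in CAP replicate 1, with an exact Poisson 95% interval of 7.59 to 10.6 CPM, and 8.53 CPM in Air replicate 3, with an interval of 7.12 to 10.1 CPM. Such intervals cover counting error only. The means were 10.3 ± 1.1 CPM in CAP and 7.22 ± 1.13 CPM in Air (SD, n = 3 each). The log2FC was 0.51 (SE 0.18), with an edgeR p of 0.0252 and an adjusted p of 0.178. It rested on 141, 193 and 150 counts in CAP and 113, 107 and 129 counts in Air.

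miR-26a-2-3p, which comes only from the Ctdsp2 hairpin, was at 46.9, 34.1 and 56.8 CPM in CAP and at 43.8, 44.4 and 47.1 CPM in Air. CAP replicate 2 was the lowest and CAP replicate 3 the highest of all libraries, so that the groups overlapped. Its log2FC was 0.02 (SE 0.19, edgeR adjusted p = 0.942). The sign turned without CAP replicate 3, at −0.18, and in other settings. miR-26b-3p, the passenger of the Ctdsp1 hairpin, was at 23.5, 26.9 and 19.5 CPM in CAP and at 21.1, 21.3 and 21.7 CPM in Air. Here CAP replicate 3 was the lowest and CAP replicate 2 the highest. The log2FC was 0.13 (SE 0.15, edgeR adjusted p = 0.633), and −0.0063 without CAP replicate 2. For both strands the spread was wider in CAP, with 45.9 ± 11.4 and 45.1 ± 1.78 CPM for miR-26a-2-3p and 23.3 ± 3.73 and 21.4 ± 0.28 CPM for miR-26b-3p in CAP and Air (SD, n = 3 each).

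**Figure D2:**
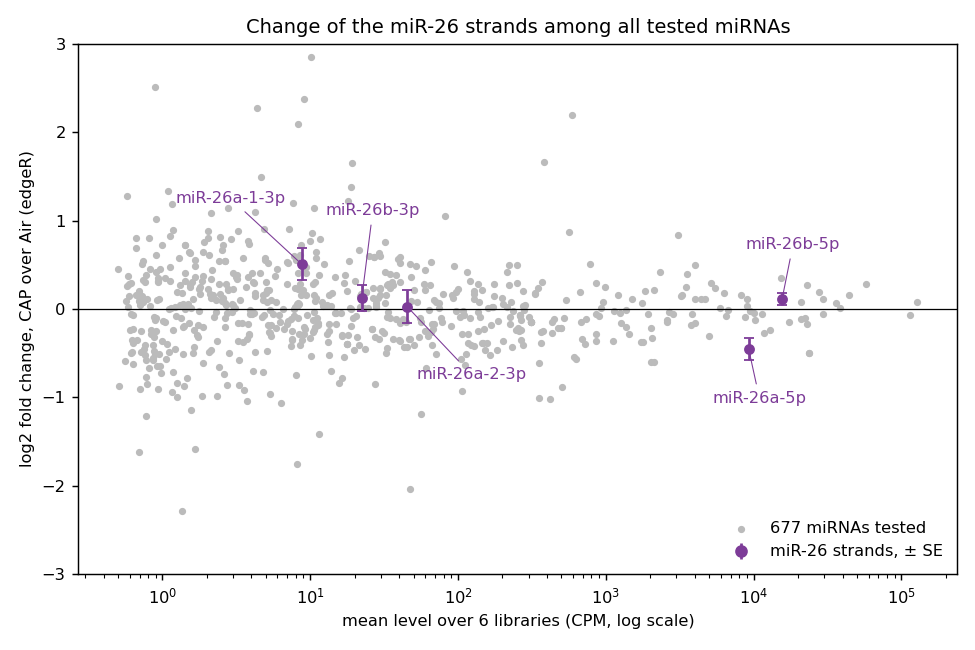
Log2 fold change of CAP over Air by edgeR against the mean level over 6 libraries in CPM (log scale) for the 677 miRNAs tested, of which 1 lies outside the plotted range, with the miR-26 strands marked with their standard errors. miR-26a-5p, at −0.45, lies below most miRNAs of its level, and miR-26b-5p, at 0.11, lies near 0.

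Ratios between strands of 1 library do not depend on how libraries are scaled, and 5 of them were tested by exact two-sided permutation of the libraries, where the smallest p that 3 against 3 allows is 0.1. The ratio of miR-26b-5p to miR-26a-5p counts was 1.89, 2.31 and 2.05 in CAP and 1.48, 1.53 and 1.24 in Air. miR-26a-5p therefore made up 34.6, 30.3 and 32.8% of the guide counts in CAP and 40.4, 39.6 and 44.6% in Air. The groups did not overlap, and the widest Wilson 95% interval of these shares was that of CAP replicate 3, from 32.6 to 32.96%. The log2 ratio was higher in CAP by 0.56 (SE 0.13, exact permutation p = 0.1, adjusted over 5 ratios p = 0.125). It lay between 0.46 and 0.62 with any 1 library left out.

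The passenger share of the mir-26a-1 hairpin, miR-26a-1-3p as a percentage of its own counts plus those of miR-26a-5p, was 0.107, 0.153 and 0.138% in CAP and 0.0672, 0.0661 and 0.0688% in Air. The 3 Air libraries were close to each other and all below the CAP libraries. The nearest Wilson 95% intervals were 0.0908 to 0.126% in CAP replicate 1 and 0.0579 to 0.0817% in Air replicate 3. The log2 ratio of miR-26a-1-3p to miR-26a-5p was higher in CAP by 0.96 (SE 0.15, exact permutation p = 0.1, adjusted p = 0.125). This guide is shared with mir-26a-2, so that the share is not that of 1 hairpin alone.

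For mir-26a-2 the passenger share was 0.554, 0.485 and 0.700% in CAP and 0.449, 0.443 and 0.379% in Air, again without overlap. Here the nearest Wilson intervals did overlap, at 0.448 to 0.525% in CAP replicate 2 and 0.418 to 0.482% in Air replicate 1. The log2 ratio was higher in CAP by 0.44 (SE 0.17, exact permutation p = 0.1, adjusted p = 0.125). For mir-26b it was 0.148, 0.167 and 0.118% in CAP and 0.147, 0.139 and 0.141% in Air. These groups overlapped, and the log2 ratio differed by 0.00 (SE 0.15, exact permutation p = 1, adjusted p = 1). The ratio of the mir-26a passengers to each other, miR-26a-1-3p to miR-26a-2-3p, was 0.192, 0.314 and 0.196 in CAP and 0.149, 0.149 and 0.181 in Air. It was higher in CAP by 0.52 on the log2 scale (SE 0.25, exact permutation p = 0.1, adjusted p = 0.125). CAP replicate 2 was the highest, and without it the difference was 0.29. The nearest libraries were not apart beyond counting error. With miR-26a-1-3p as a percentage of both passengers, their Wilson intervals were 13.8 to 18.7% in CAP replicate 1 and 13.0 to 17.9% in Air replicate 3. How often ratios between other passengers separate the groups was not counted. Ratios that share miR-26a-5p are not independent of each other.

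**Figure D3:**
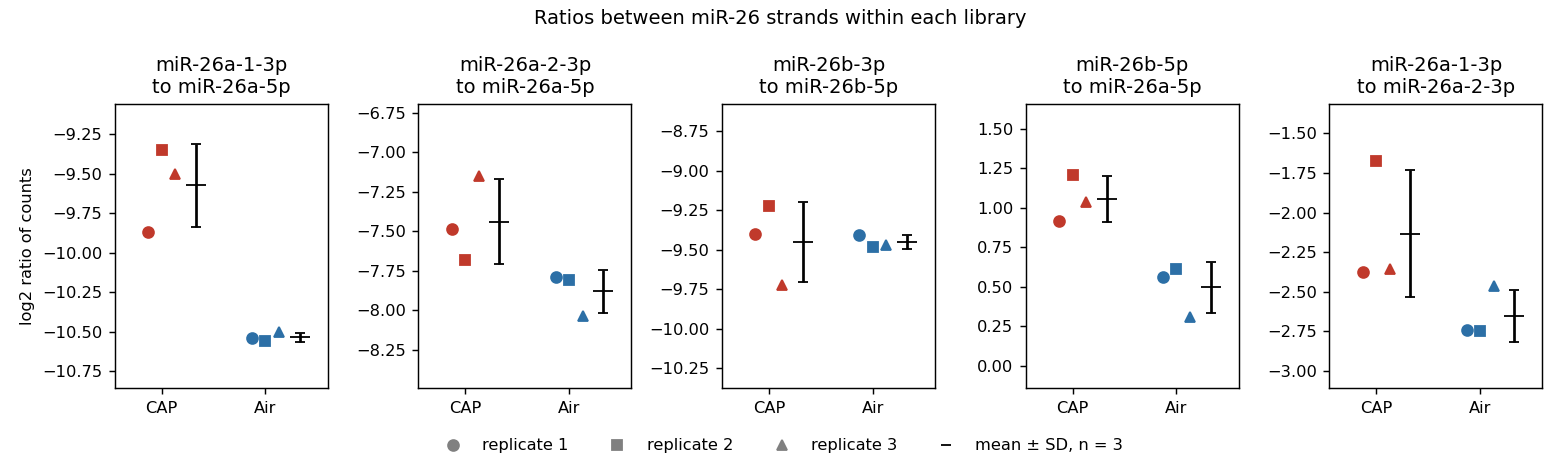
Log2 ratio of counts between miR-26 strands in each library of the CAP and Air groups, with points for replicates and a bar for the mean ± SD. Each vertical axis spans the same range. The points of the groups are apart in all ratios but that of miR-26b-3p to miR-26b-5p, where the means differ by 0.00. For miR-26a-2-3p to miR-26a-5p and miR-26a-1-3p to miR-26a-2-3p, the Wilson intervals of the nearest libraries overlap.

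Such shifts were not particular to miR-26. Of 265 precursors with both arms tested, the ratio of passenger to guide was without overlap and higher in CAP for 26.4% and lower in CAP for 15.1%. The median log2 difference of this ratio was 0.05. From the highest difference down, mir-26a-1 had rank 6 of 265, mir-26a-2 rank 49 and mir-26b rank 140. A guide with a log2FC below 0 and a passenger above 0, as at both mir-26a hairpins, was found at 71 of the 265, and the opposite at 54. At mir-26a the guide is the same for both hairpins. The passenger miR-26a-2-3p had a log2FC of only 0.02, which turned sign in 9 of 22 other settings. These 265 include repeat copies that list the same pair of arms, such as those of mir-669a and mir-466b, so that some pairs were counted more than once. With 1 precursor kept for each of the 230 distinct pairs, a choice made after seeing the data, the ratio was without overlap and higher in CAP for 22.2% and lower for 16.1%, with a median log2 difference of 0.03. mir-26a-1 then had rank 5 of 230, mir-26a-2 rank 40 and mir-26b rank 120. A guide below 0 with a passenger above 0 was found at 52 of the 230 and the opposite also at 52, so that the excess of the first pattern was not seen without the copies. The miR-26 passengers were small fractions even among passengers. Pooled over libraries, the minor arm took a median of 5.23% of the counts over all 265 precursors and 4.58% over the 230 distinct pairs. It took 0.0942% for mir-26a-1, 0.485% for mir-26a-2 and 0.145% for mir-26b. Both mir-26a hairpins were set against all reads of their shared guide, so that neither shares nor ratios are those of 1 hairpin alone. In all, 85 pairs of names with a RefSeq sequence had 1 seed in common and at least 100 CPM each. The ratio within a pair did not overlap between the groups for 48.2% of them. Names of large families such as let-7 recur in many pairs, so that the pairs are not independent. The miR-26b-5p and miR-26a-5p pair ranked 7 of 85 by the size of the difference, against a median size of 0.21.

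**Figure D4:**
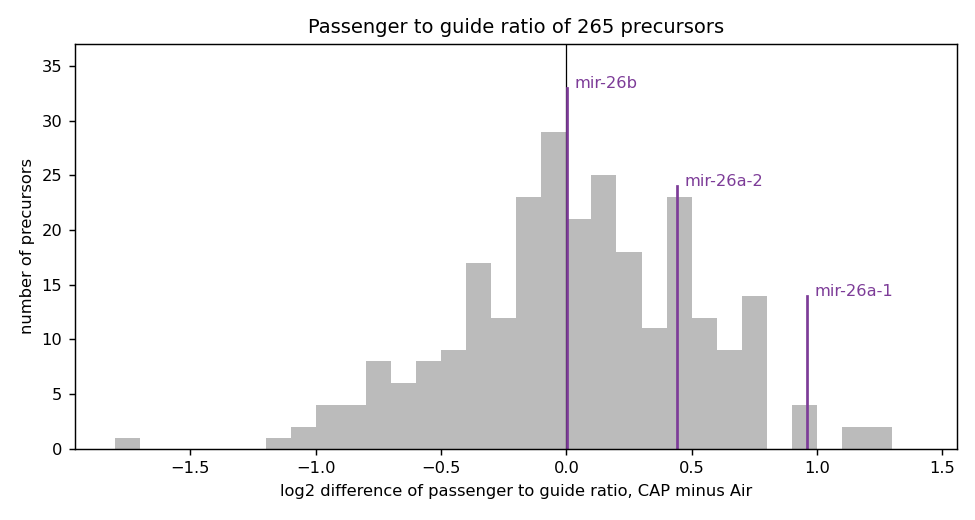
Number of precursors by the log2 difference in the passenger to guide ratio, CAP minus Air, for the 265 precursors with both arms tested, with the miR-26 hairpins marked by lines. mir-26a-1 lies in the upper tail at 0.96, mir-26a-2 at 0.44 and mir-26b at 0.00.

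The miRNAs whose pattern over the 6 libraries was most like that of each guide were taken from 182 other names of at least 100 CPM, by the root mean square difference of centred log2 CPM. For miR-26a-5p the nearest was miR-503-5p, which restrains the cell cycle, at a distance of 0.03. It was at 207, 177 and 205 CPM in CAP and at 232, 249 and 314 CPM in Air, with Air replicate 3 again the highest and CAP replicate 2 the lowest. The next were miR-181a-5p, miR-34b-3p, miR-378a-5p and miR-181b-5p, at distances of 0.08 to 0.12. For miR-26b-5p the nearest was let-7f-5p at 0.03, followed by let-7g-5p, miR-98-5p, miR-301a-3p and let-7a-5p, at up to 0.04. Of these 5, 4 are guides of the let-7 family, whose targets include Ras genes and Lin28. The points share their libraries and scaling, and the distances are descriptions.

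Other miRNAs tied to the same regulator or target had values on both sides of 0. Of 24 other miRNAs that Myc represses in B cells, 12 had a log2FC above 0 and 12 below, with a median of 0.00, as over all 677 names. At an unadjusted p under 0.05, 3 were higher and 2 lower, against 11.5% and 9.45% of all names, among them let-7i-5p with a log2FC of 0.27 and miR-22-3p with −0.27, and 0 passed the adjusted test of edgeR. Of the 24, 7 were higher in CAP without overlap between the groups and 3 were lower without overlap, against 14.6% and 14.3% of all names. Of the other miRNAs that target Ezh2, 3 of 4 were tested. miR-101b-3p averaged 2677 ± 629 CPM in the CAP libraries and 1994 ± 58.0 CPM in the Air libraries (SD, n = 3 each) and had a log2FC of 0.42 (SE 0.16). miR-138-5p had −0.50 (SE 0.16) and miR-101a-3p −0.16 (SE 0.13).

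**Figure D5:**
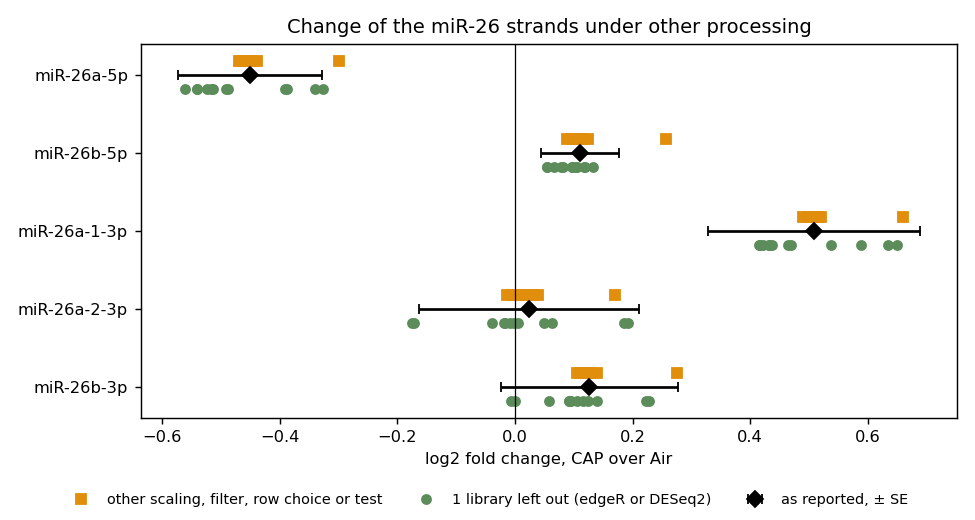
Log2 fold change of CAP over Air of each miR-26 strand as reported (diamonds, with standard error), under other scalings, filters, row choices or tests (squares), and with 1 library left out (circles). miR-26a-5p stays between −0.56 and −0.30, miR-26b-5p and miR-26a-1-3p stay above 0, and the other passengers fall on both sides of 0.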

How the data were processed

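Small RNA of cultured bone marrow EPCs was sequenced from 3 CAP and 3 Air mice, with the group and replicate of each library read from its title. The libraries are numbered 1, 2 and 4 in Air and 8, 9 and 10 in CAP, so that library order and exposure cannot be told apart. The authors prepared libraries with a QIAseq kit, removed adapters with Trimmomatic, mapped reads to mm10 with bowtie and counted them on miRBase sequences with mirDeep2. They deposited raw read counts per mature miRNA and precursor, without normalization, and a read matching several precursors is listed at each. Collapsing by molecular identifiers was not stated. Each of 1915 names was represented by its row of largest total.

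The main test was edgeR 4.0.16, run in R 4.3.3 (TMM, default expression filter, quasi-likelihood fit on the group, Benjamini–Hochberg adjustment over 677 names). Standard errors were derived from the F statistic. DESeq2 1.42.0, the study's test, and limma-voom (limma 3.58.1) were alternatives, with other scalings, filters and row choices, a replicate block and each library left out. DESeq2 was run here on 1 row per name with a total of at least 10 counts. The study's count table held 2061 rows, on which DESeq2 was not run here. The names passed here are not the study's list. The study reported more miRNAs at its adjusted cutoff than DESeq2 passed here, and the cause of this was not tested. DESeq2 with each library left out, and 1 precursor per distinct pair of arms, were added after seeing the data. Scripts were tested on simulated data. Ratios of counts were compared by exact permutation with scipy 1.17.1. The named miRNAs were all members, the 5 nearest to each guide in pattern, and up to 4 of each list with the smallest p, of which those that a result turns on are given. A further list is not reported here. Members and lists were chosen with earlier results of these data known. Figures were drawn with matplotlib 3.10.9.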

Additional observations from a re-analysis of the deposited data

How the results depend on the processing

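The log2 fold change of miR-26a-5p was below 0, and those of miR-26b-5p and miR-26a-1-3p above 0, in all 22 other settings. With edgeR and 1 library left out in turn, they were −0.56 to −0.34, 0.05 to 0.12 and 0.41 to 0.63. With DESeq2 and 1 library left out they were −0.54 to −0.33, 0.05 to 0.13 and 0.42 to 0.65. The adjusted p of miR-26a-5p ranged from 0.0498 to 0.340 over these settings and passed only with DESeq2 without CAP replicate 1, at a log2 fold change of −0.51. miR-26a-2-3p turned to −0.0046 with the replicate block and to −0.013 with limma-voom. With 1 library left out it ranged from −0.18 to 0.19 by edgeR and from −0.17 to 0.19 by DESeq2, with −0.018 and −0.0024 by DESeq2 without Air replicates 1 and 2. miR-26b-3p ranged from −0.0063 to 0.22 by edgeR and from −0.00038 to 0.23 by DESeq2. The log2 ratio of miR-26b-3p to miR-26b-5p ranged from −0.11 to 0.14 with 1 library left out, and the other 4 ratios kept their sign. Against 0 names passed as reported, 13 passed with no filter on low counts and 29 with DESeq2. With 1 library left out, 0 passed by edgeR. DESeq2 then passed 69, 25 and 74 without CAP replicates 1, 2 and 3, and 10, 6 and 10 without Air replicates 1, 2 and 3. The cause of these differences was not tested.

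The labels do not state that the replicate numbers pair the mice, and the count columns carry partly other numbers than the titles used here. Same-numbered libraries had correlations of 0.02, −0.02 and 0.14 between their deviations from the group means across miRNAs. Only CAP replicate 3 and Air replicate 3 correlated best with their own number. With 3 libraries per group, these correlations cannot decide whether mice were paired. The replicate block gave 0 passed names, a log2 fold change of −0.45 for miR-26a-5p and a ratio difference of 0.56 for miR-26b-5p to miR-26a-5p. Depth limits the passengers most, since miR-26a-1-3p had 107 to 193 counts per library.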
